A study of Mus musculus with 8 samples.

Results

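The alpha-arrestin family of the mouse has 6 genes, Txnip and Arrdc1 to Arrdc5, and all 6 were found among the 21938 protein-coding genes of the mm10 annotation. They were chosen by family membership, with the earlier result known that many binding sites of the glucocorticoid receptor (GR) lay around Txnip. A peak was assigned to a gene when it shared at least 1 base with the gene body or with the 25 kb on either side of any of its transcription start sites (TSS). By that rule the family held 45 of the 23188 GR peaks on nuclear chromosomes.

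Chromatin immunoprecipitation with sequencing was performed on nuclei of skeletal muscle from WT C57/Bl6J mice, 10 to 12 weeks old. Antibodies against GR, H3K27ac, RNA polymerase II (Pol2) and H3K4me1 shared the library Input1, and antibodies against CTCF and H3K4me3 shared Input2. The 8 samples were 1 library per antibody and the 2 inputs, the labels name no treatment, and neither the muscle taken nor the number of animals pooled is given in the sources used here. There were no replicates, so every value below describes 1 library, no difference was tested, and the shares over all genes or all peaks stand beside each value as its background.

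Alpha-arrestins are adaptor proteins with an arrestin fold. Most carry PPxY motifs that recruit HECT ubiquitin ligases of the NEDD4 family to membrane proteins, which are then ubiquitinated and taken into the cell. Txnip, thioredoxin-interacting protein, binds thioredoxin and lowers glucose uptake through the transporters Glut1 and Glut4, and its gene is switched on by glucose through a carbohydrate response element. Arrdc4 is the closest relative of Txnip and is also regulated by glucose, Arrdc3 acts on integrin beta4, and Arrdc1 takes part in the budding of vesicles from the plasma membrane. GR is a hormone-activated transcription factor, H3K4me3 marks promoters, H3K4me1 marks enhancers and promoter flanks, H3K27ac marks both when active, and CTCF binds at the ends of chromatin loops.

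Genes were located in mm10 as follows. Txnip (ENSMUSG00000038393.14) lay on the forward strand of chromosome 3 at 96557957 to 96561883 and spanned 3927 bases. Arrdc2 lay on the reverse strand of chromosome 8 at 70835129 to 70839720, a span of 4592 bases. Arrdc1 covered 9901 bases on chromosome 2, Arrdc3 12659 bases on chromosome 13, Arrdc4 12247 bases on chromosome 7 and Arrdc5 6176 bases on chromosome 17. Distances below run from the 5′ end of the gene record in the direction of transcription, and the place of a peak is that of its midpoint.

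The 250 bases before the start of Txnip and of Arrdc4 are shown because GR peaks covered both in full and because of their motifs. Txnip holds a carbohydrate response element, which few promoters hold, and Arrdc4 6 copies of CCAAT, a number that few promoters reach. At least 1 copy of CCAAT was held by 37.4% of RefSeq promoters, and GR peaks also covered promoters of Arrdc3 in full. The sequences are RefSeq promoters on GRCm38.p6, written 5′ to 3′ along the gene. Capitals mark CCAAT on either strand, the carbohydrate response element (2 copies of CACGNG 5 bases apart) in Txnip and the E-box CACGTG in Arrdc4.
Txnip, chr3:96557707-96557956, forward strand: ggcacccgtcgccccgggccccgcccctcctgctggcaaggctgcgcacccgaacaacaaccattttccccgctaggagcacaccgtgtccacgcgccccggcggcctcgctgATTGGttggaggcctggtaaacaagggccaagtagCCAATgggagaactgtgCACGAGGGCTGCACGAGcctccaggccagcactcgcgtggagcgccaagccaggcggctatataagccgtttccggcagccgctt
Arrdc4, chr7:68749239-68749488, reverse strand: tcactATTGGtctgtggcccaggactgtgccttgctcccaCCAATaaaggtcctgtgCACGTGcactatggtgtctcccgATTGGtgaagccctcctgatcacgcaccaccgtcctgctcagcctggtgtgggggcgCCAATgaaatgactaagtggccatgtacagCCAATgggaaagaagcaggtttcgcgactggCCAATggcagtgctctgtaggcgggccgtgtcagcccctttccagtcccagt

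The carbohydrate response element of Txnip began at −85 from the start, at chr3:96557872-96557888. Of 32851 RefSeq promoters of 300 bases (250 before the start and 50 after it), 16 held such an element on either strand, or 0.0487%, and of all GR peaks 20 held one, or 0.0863%. Only this form, with both copies in the same direction, was searched, so these shares cover no other form of the element. All 17 bases of the element were under a GR peak, a Pol2 peak and an H3K4me3 peak, and none under H3K27ac. The Arrdc4 window had 6 copies of CCAAT, a number reached by 26 of the 32851 promoters, or 0.0791%, beside 2 copies in Txnip, which 11.7% of promoters reached. CCAAT was added to the motifs after these promoters had been read. The E-box of Arrdc4 began at −193 from the RefSeq start that ends the printed sequence and lay under the GR peak alone, as did 4 of the 6 copies of CCAAT, while the 2 copies nearest the start also lay under H3K4me3. E-boxes were held by 7.15% of all promoters and, in the family, by the Arrdc4 promoter only. These are matches of letters, and no binding of the factors that read them was measured.

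GR peaks were unevenly spread over the family. The windows of Txnip, Arrdc2, Arrdc5, Arrdc3, Arrdc1 and Arrdc4 held 21, 9, 7, 4, 3 and 1 GR peaks. All 6 genes thus had a GR peak in their window, as did 60.8% of all protein-coding genes, whose median number was 1. As many GR peaks as Txnip had were found for 18 genes, Txnip included, or 0.082% of all, and for 18 of the 10322 genes with Pol2 within 1 kb of a TSS, or 0.174%. As many as Arrdc2 had were found for 1.87% of all genes, and as many as Arrdc5 had for 4.13%. For Arrdc3, Arrdc1 and Arrdc4 these shares were 16.0%, 25.5% and 60.8%. The peaks at the limit of the window lay 20.2 kb (inside) and 31.7 kb (outside) from a start site of Txnip, and 23.1 kb and 25.2 kb from one of Arrdc5.

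**Figure D1:**
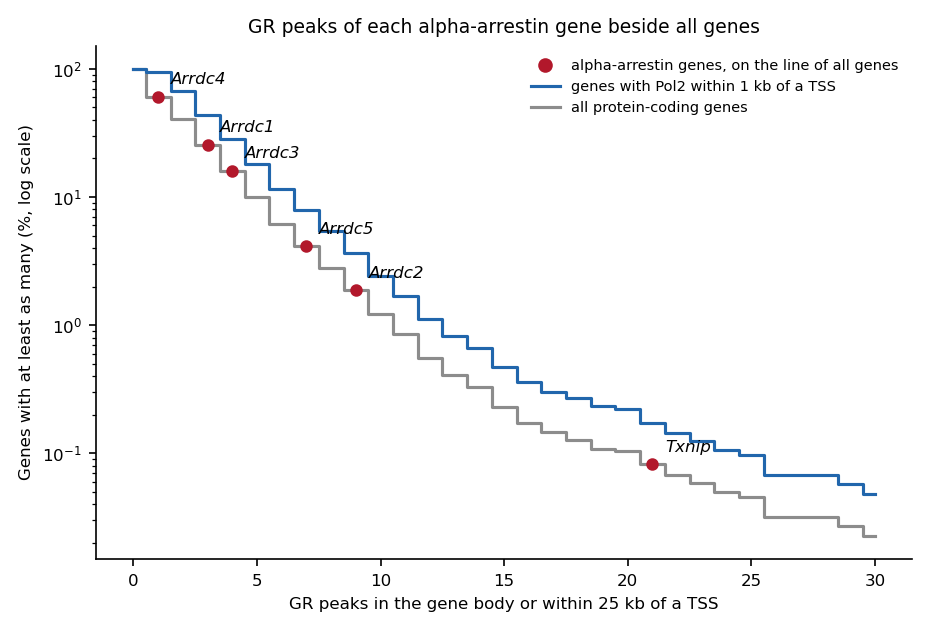
GR peaks in the gene body or within 25 kb of a TSS (horizontal axis) against the percentage of genes with at least that many (vertical axis, log scale). Red points are the 6 genes, placed on the grey line of all 21938 protein-coding genes, and the blue line is the 10322 genes with Pol2 within 1 kb of a TSS. Txnip, with 21 peaks, sits at 0.082% of all genes, while Arrdc4, with 1 peak, sits at 60.8%.

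Not all of these peaks were closest to the gene they were assigned to. Of the 21 peaks around Txnip, 16 had Txnip as the nearest protein-coding TSS, 4 had Gm16253 and 1 had Polr3gl, a subunit gene of RNA polymerase III. Of the 9 around Arrdc2, 7 were nearest to it and 2 to Il12rb1, an interleukin receptor gene. All 4 peaks at Arrdc3 and the 1 at Arrdc4 were nearest to those genes. At Arrdc1 it was 1 of 3, the others being at the promoters of Zmynd19 and Ehmt1. At Arrdc5 it was 0 of 7, with 5 nearest to Plin3, a lipid droplet protein gene, and 2 to Ticam1, an adaptor of Toll-like receptors.

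At the start site itself, 5 of the 6 genes had a GR peak within 1 kb, all but Arrdc5, beside 43.4% of all genes. The same 5 genes had Pol2 within 1 kb, against 47.1% of all genes. They also had H3K27ac, against 52.4%, and H3K4me3, against 61.5%. H3K4me1 was present within 1 kb at 4 genes, Arrdc1 to Arrdc4, against 65.8% of all genes, and CTCF at 0 of 6, against 7.54%. In the wider window all 6 genes had Pol2, H3K27ac, H3K4me3 and H3K4me1 peaks, as did 59.1%, 65.6%, 71.8% and 78.2% of all genes. CTCF peaks were found in the windows of 3 genes, Txnip, Arrdc2 and Arrdc5, against 33.0% of all genes.

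**Figure D2:**
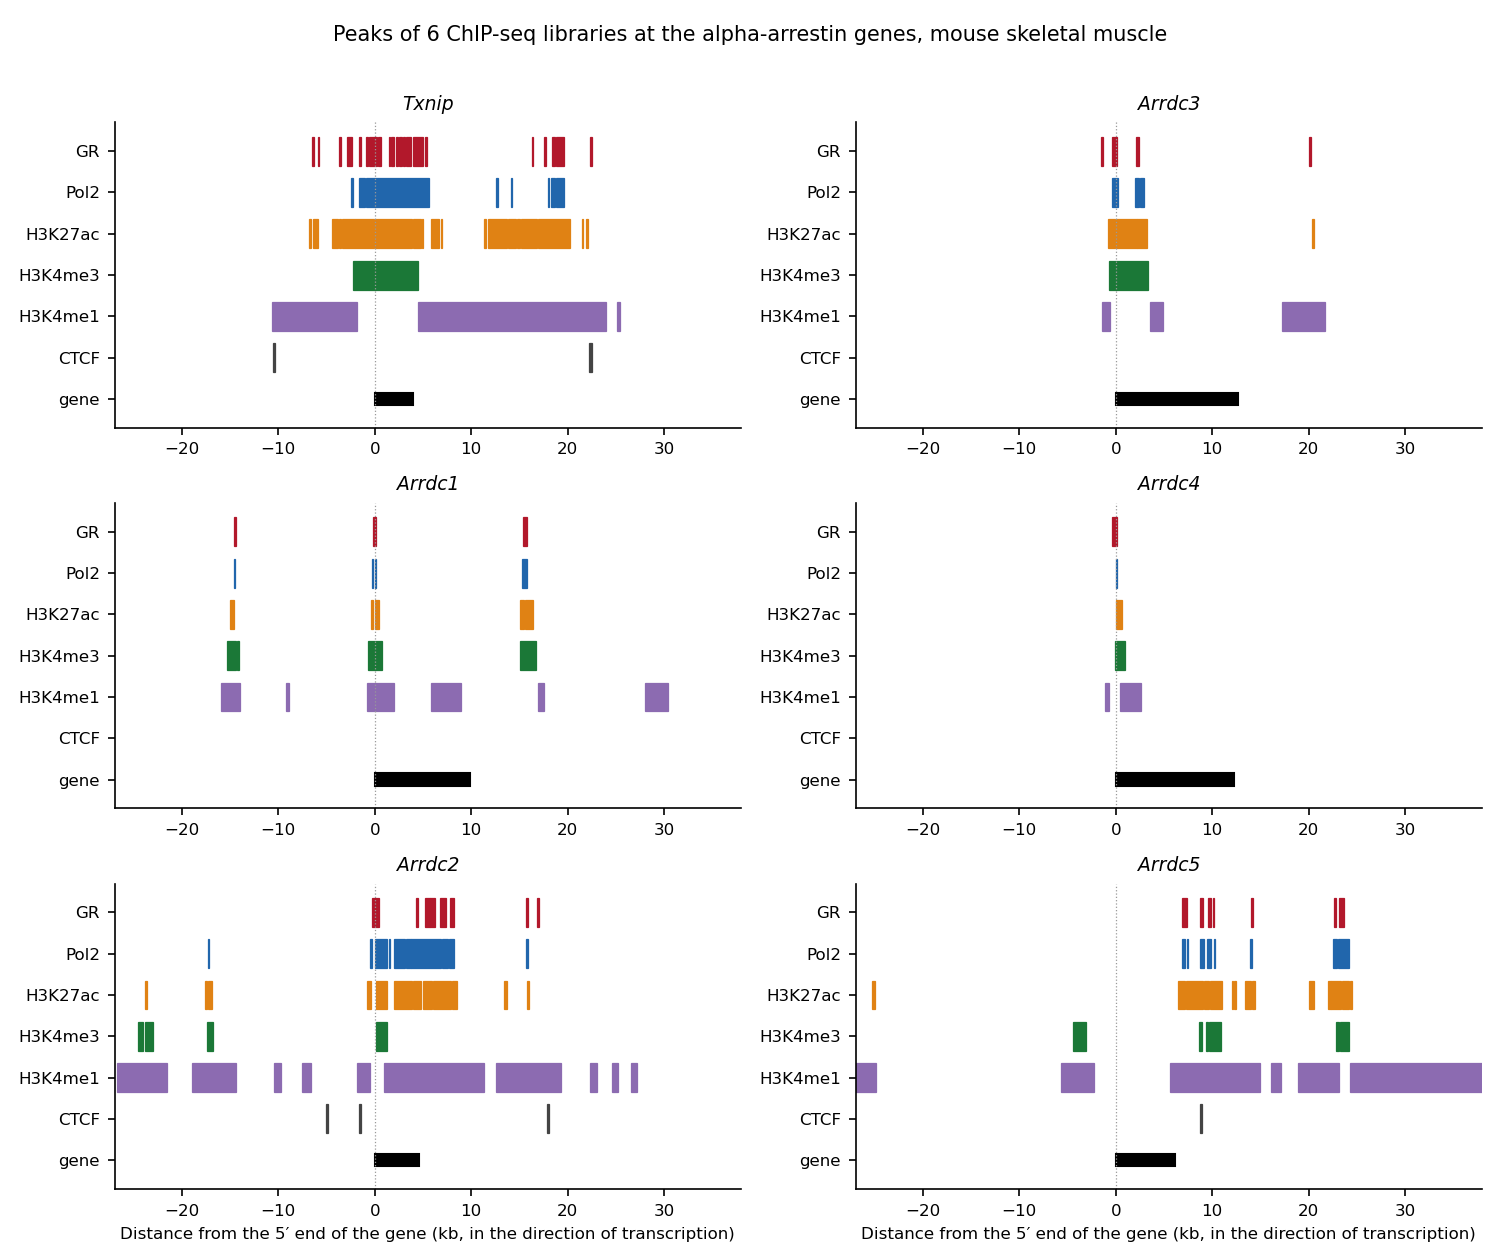
Peaks of each library at the 6 genes, 1 panel per gene, by distance from the 5′ end in kb along the direction of transcription, with the gene body as a black bar. Peaks reaching past a panel's edge are drawn to the edge. At Txnip the GR peaks form a group of 16 across the gene and a group of 5 farther downstream, while the Arrdc4 panel holds 1 GR peak at the start.

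Txnip had the densest GR peaks of the 6 genes. Its 21 peaks covered 7245 bases of the 25 kb on either side of the 5′ end, as much as at only 6 of all protein-coding genes, or 0.0273%, Txnip included. The median over all genes was 189 bases. GR peaks covered 56.1% of the gene body, a share reached by 12 genes. The peaks fell into a group of 16 with midpoints at −6.44 to +5.3 kb and a group of 5 at +16.4 to +22.4 kb, with 10.9 kb between them and no GR peak there. Counted by gene part, 7 midpoints were upstream, 3 in coding exons, 1 in an intron, 3 in the 3′ UTR and 7 downstream.

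The widest GR peak at Txnip spanned 1117 bases, centred at +4.49 kb just past the 3′ end of the gene, and 0.129% of all GR peaks were as wide. Second came a peak of 851 bases at +19.2 kb, close to the start of Gm16253, and then the promoter peak of 844 bases, which ran from −575 to +268 bases. Of all GR peaks, 0.539% and 0.565% were as wide as these. The other 18 peaks were 123 to 525 bases wide, against a median of 212 bases over all GR peaks. The GR list has no score or height, so width is the only measure of size it offers.

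Pol2 was spread over the whole of Txnip. A single Pol2 peak of 6609 bases covered 100% of the gene body, from −932 bases to 1750 bases past the 3′ end, and 14 Pol2 peaks in the list, or 0.0693%, were at least as wide. Complete coverage was found for 11 genes, or 0.0501%. Under this peak lay 11 of the 21 GR peaks. Counting every GR peak that shared a base with the gene body, the promoter peak included, Txnip had 8, or 2.04 per kb, while the 25 genes with at least 90% of the body under Pol2 had a median of 3 GR peaks and 0.955 per kb. Of those 25 genes 3, Txnip included, were as dense, or 12.0%. This comparison, like the grouping of the GR peaks of Txnip by place, was added after the peaks had been seen. GR and Pol2 peaks thus lay together here, and what part the broad Pol2 occupancy has in the number of GR peaks was not tested. Reads of the inputs were not available here, so the part of input signal in these peaks could not be looked at.

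H3K4me3 and H3K4me1 at Txnip overlapped little, while H3K27ac lay over 97.0% of the H3K4me3 peak. H3K4me3 formed 1 peak of 6679 bases that began at −2220 bases and ended 532 bases past the 3′ end, with 0.0252% of H3K4me3 peaks as wide. Its fold over control in the authors' list was 27.9, which 38.3% of H3K4me3 peaks reached, so its width was rare in the list and its fold was not. H3K27ac covered 97.7% of the gene body and 19.3 kb of the 50 kb around the 5′ end in 19 peaks, as much as at 0.0866% of genes. H3K4me1 covered 0% of the gene body and lay on both sides, in a peak of 8875 bases upstream that ended at −1809 bases and a peak of 19567 bases downstream that began at +4470 bases. Of the H3K4me3 peak, 412 of 6679 bases were also under H3K4me1.

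The GR peaks of Txnip differed in their marks by place. All 7 peaks inside the gene overlapped H3K4me3, H3K27ac and Pol2, and none overlapped H3K4me1. Of the 7 upstream peaks, the 4 from −6.44 to −2.65 kb lay on H3K4me1 and H3K27ac without H3K4me3, the marks of an active enhancer, and the 3 nearest the start on H3K4me3. Among the 5 far downstream, 4 were of this enhancer class and 2 of those also carried Pol2. The start of Gm16253, at +19.0 kb, had GR, Pol2, H3K27ac and H3K4me1 within 1 kb and no H3K4me3.

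CTCF peaks stood on either side of the GR peaks of Txnip. One lay at −10.4 kb with a fold of 6.4, which 73.9% of CTCF peaks reached, and the other at +22.4 kb with a fold of 13.2, which 9.65% reached. Between their midpoints, 32.9 kb apart, lay 20 of the 21 GR midpoints, and the last GR peak overlapped the downstream CTCF peak. Whether these CTCF sites form a loop was not measured.

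Arrdc2 resembled Txnip in the reach of Pol2 and differed from it in the place of its GR peaks. Of its 9 GR peaks, 2 were at the start, at −0.143 and +0.236 kb, 5 formed a row from +4.36 to +8.03 kb across and past the 3′ end, and 2 lay farther on at +15.8 and +16.9 kb. The row of 5 was 197, 467, 490, 685 and 401 bases wide along the gene, and every one of them overlapped Pol2, H3K27ac and H3K4me1 without H3K4me3. The peak at −0.143 kb, 237 bases wide, overlapped none of the other libraries, and the one at +0.236 kb, 327 bases wide and in the 5′ UTR, overlapped H3K4me3, H3K27ac and Pol2. GR peaks covered 3125 bases around the 5′ end of Arrdc2, as much as at 0.305% of genes. Among the 84 genes with at least 50% of the body under Pol2, Arrdc2 included, 31 had as many GR peaks in the window. Arrdc2 had 2 GR peaks sharing a base with its body, or 0.436 per kb, beside a median of 0.657 over those genes. As dense were 70.2% of them. This comparison was also added after the peaks had been seen.

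Pol2 covered 81.4% of the body of Arrdc2, a share reached by 0.146% of genes, and H3K27ac 76.3%. The peak at the 3′ end was 3085 bases wide and reached 2304 bases past the gene, and 2 narrower Pol2 peaks followed it to +8202 bases, under the same row of GR peaks. H3K4me3 was a peak of 1111 bases with a fold of 40.2, which began 123 bases past the 5′ end. H3K4me1 covered 79.9% of the gene, in contrast to 0% at Txnip. The nearest CTCF peaks lay at −1.53 and +18.0 kb, and all 9 GR midpoints were between them.

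Arrdc3 had 4 GR peaks. Those at the promoter, 573 bases wide at −0.128 kb, and in an intron, 300 bases wide at +2.23 kb, overlapped H3K4me3, H3K27ac and Pol2. The other 2, 138 bases wide at −1.42 kb and 242 bases wide at +20.1 kb, overlapped H3K4me1 alone. The H3K4me3 peak of Arrdc3 was broad, with 4006 bases, a width reached by 0.439% of the list, and a fold of 25.7. Pol2 was confined to the first part of the gene, in 5 peaks that ended at +2884 bases and covered 6.92% of the body. No CTCF peak was listed for 486 kb downstream, and the nearest upstream lay at −3190 kb. The CTCF list held 6526 peaks in all, and wide gaps were not particular to Arrdc3. The CTCF peaks on either side of Arrdc1 and Arrdc4 were 1870 and 1970 kb apart.

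Arrdc4 stood alone in its surroundings. It had 1 GR peak of 572 bases at the promoter, 1 Pol2 peak of 186 bases, 1 H3K27ac peak of 667 bases and 1 H3K4me3 peak of 1049 bases with a fold of 39.7. Out to 250 kb on either side there was still 1 peak of each of these 4 libraries, and the nearest other GR peak was 472 kb from a start site. Its GR peak began at −424 bases, while H3K4me3 began at −87 and H3K27ac at −25 bases. An H3K4me1 peak lay wholly upstream of it, from −1080 to −663 bases. Only 3.57% of GR peaks were as wide.

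Arrdc1 had 1 GR peak of its own, 271 bases wide and centred at −38 bases, with Pol2 peaks of 117 and 115 bases on its edges. H3K27ac peaks of 218 and 341 bases flanked the start. Its H3K4me3 peak spanned 1363 bases with a fold of 16.2, the lowest fold of the 5 start sites with H3K4me3 in the family, and all of its bases were also under H3K4me1. At Txnip, Arrdc2, Arrdc3 and Arrdc4 that share was 6.17%, 28.2%, 3.22% and 47.3%.

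Arrdc5 had no peak of any of the 6 libraries within 1 kb of a TSS. Of its body, 9.54% lay under H3K4me1 and 0% under the other 5 libraries. Its 7 GR peaks lay 6923 bases and more downstream of the 5′ end, at and in Plin3 and Ticam1, and 5 of the 7 overlapped H3K4me3 there. The number of peaks assigned to Arrdc5 therefore describes its neighbours.

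**Figure D3:**
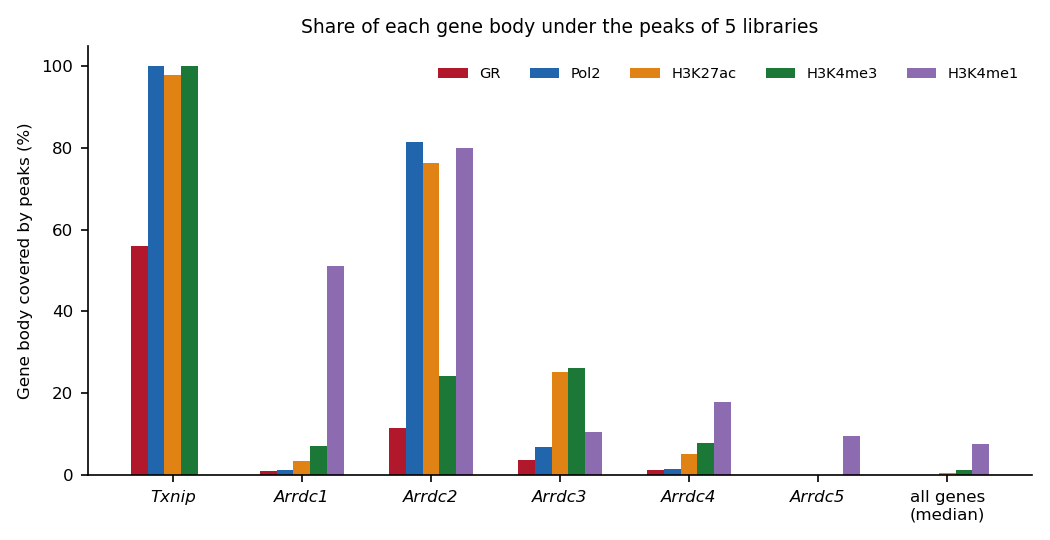
Percentage of each gene body covered by peaks of GR, Pol2, H3K27ac, H3K4me3 and H3K4me1, with the median over all protein-coding genes at the right. Txnip stands at 100% for Pol2 and H3K4me3 and at 0% for H3K4me1, Arrdc2 at 81.4% for Pol2 and 79.9% for H3K4me1, and Arrdc5 at 0% for all but H3K4me1.

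At the start sites the GR peak lay over the interval between H3K27ac peaks. At 4 of the 6 genes a gap of under 1 kb between neighbouring H3K27ac peaks was found at the 5′ end, of 112 bases at Txnip, 270 at Arrdc1, 534 at Arrdc2 and 69 at Arrdc3. GR peaks covered 112, 249, 342 and 69 of these bases. The gap of Txnip contained the carbohydrate response element shown above. Such gaps were found at 5285 protein-coding genes, and a GR peak touched 78.3% of them and a Pol2 peak 83.0%, beside 4 of 4 in the family for both. This measure was chosen after the peaks had been seen, and 4 genes cannot be told from that background.

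Over the family, 23 of the 45 GR peaks, or 51.1%, overlapped H3K4me3, beside 53.2% over the whole list. The enhancer class held 16, or 35.6%, beside 19.3% of all. Of these 16, Txnip had 8, Arrdc2 6 and the Plin3 region downstream of Arrdc5 2, and Arrdc1, Arrdc3 and Arrdc4 had 0. H3K4me1 alone was found under 5, or 11.1%, beside 19.9%, and 1, or 2.22%, had no mark, beside 6.78%. Pol2 overlapped 35 of the 45, or 77.8%, beside 51.3% of all GR peaks, and CTCF 2, or 4.44%, beside 7.09%. Since neighbouring peaks of 1 gene share their chromatin, these shares rest on a few loci. They also include peaks nearest to the TSS of a neighbour, 5 at Txnip, 2 at Arrdc1, 2 at Arrdc2 and all 7 at Arrdc5. Those of Arrdc5 alone gave 5 of the 23 peaks on H3K4me3 and 7 of the 35 on Pol2. The shares therefore describe the windows of the family and not its genes alone.

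**Figure D4:**
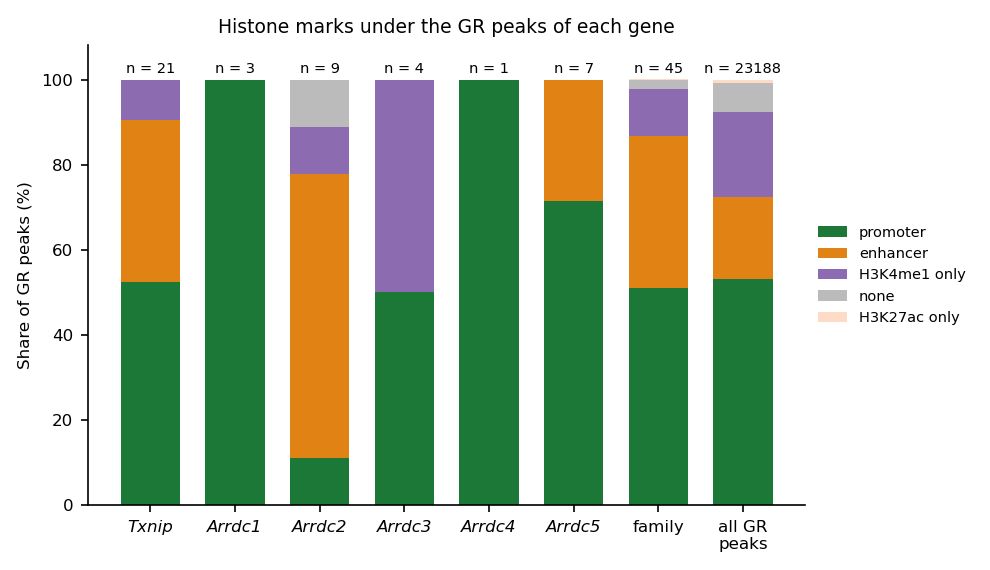
Percentage of GR peaks in each class of histone marks, by gene, for the 45 peaks of the family and for all 23188 GR peaks; n is the number of peaks. The promoter class overlaps H3K4me3, the enhancer class H3K4me1 and H3K27ac without H3K4me3. Enhancer-class peaks make up 8 of 21 at Txnip and 6 of 9 at Arrdc2, and 19.3% of all GR peaks.

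The exact form of the GR motif searched here was absent from these peaks and rare in the whole list. A glucocorticoid response element, AGAACA and TGTTC separated by 3 bases on either strand, was found in 0 of the 45 peaks and in 0.638% of all GR peaks (148 of 23188). Of the RefSeq promoters, 0.0487% held it. With 1 mismatch the element was found in 3, or 6.67%, beside 4.35% of all GR peaks and 0.533% of promoters. The half-site AGAACA was found in 11 of 45, or 24.4%, and 7 of the 11 were at Txnip. It was held by 19.0% of all GR peaks and 19.0% of promoters. Forms of the motif farther from this sequence were not searched, so these shares do not cover them. The family's peaks were wider than the list, with a median of 266 bases against 212, and a wider peak holds more sequence to search. The 3 elements with a mismatch are shown in capitals with 23 bases on either side, as the nearest matches to the searched form at these genes.
Txnip, inside the gene, chr3:96559668-96559727, forward strand: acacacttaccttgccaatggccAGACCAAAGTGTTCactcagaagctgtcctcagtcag
Arrdc2, downstream, chr8:70832512-70832571, reverse strand: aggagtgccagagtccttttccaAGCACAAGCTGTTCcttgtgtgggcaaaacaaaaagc
Plin3 side of Arrdc5, chr17:56293062-56293121, reverse strand: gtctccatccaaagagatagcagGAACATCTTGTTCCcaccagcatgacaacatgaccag
The third site matches the element on the strand opposite to the printed one. It overlaps a further match with 1 mismatch that is shifted by 1 base and reads on the printed strand. The site at Arrdc2 lay in the widest GR peak of the row past its 3′ end, and the site at Txnip in a peak of 294 bases with its midpoint in a coding exon, at +1.87 kb.

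Genes that work with the alpha-arrestins, and relatives with an arrestin fold, were read in the same lists. Of 27 genes in 5 lists, 25 had a GR peak in the window, 21 within 1 kb of a TSS, and 20, 23 and 24 had Pol2, H3K27ac and H3K4me3 within 1 kb, to be read beside the shares of all genes given above. Among the 9 NEDD4-family ligases, 8 had a GR peak. The highest number was 12, at Nedd4, with 8 at Nedd4l, numbers reached by 0.556% and 2.8% of all genes. The glucose-sensing factors Mlxip, Mlxipl and Mlx, which act on carbohydrate response elements, had 6, 5 and 6 GR peaks. All 5 genes of the thioredoxin system had 1 or 2. Of the cargo genes, Slc2a4, which encodes Glut4, had 5 GR peaks and Pol2 over 43.6% of its body, and Slc2a1 and Itgb4 had 1 each. Of 7 arrestin-fold relatives 6 had a GR peak, and 4 had Pol2 within 1 kb of a TSS, which was missing at the visual arrestins Sag and Arr3 and at the beta-arrestin Arrb1. None of the 27 reached the 21 peaks of Txnip. The window takes in the whole gene body, so it is larger for a long gene, and the numbers were not adjusted for length. Of the 10 muscle fibre marker genes read below, Tnnt3 had 21 GR peaks and Atp2a1 29, and the median over the 10 was 8. Pol2 covered 99.4% of the body of Tnnt3 and 100% of that of Atp2a1.

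The genes whose surroundings were most like those of each alpha-arrestin were found from the bases covered by each of the 6 libraries within 25 kb of the 5′ end, as the distance between log2(1 + bases) over the 6 values. Genes within 100 kb of a family member were left out. For Txnip these were Nr1d1, the gene of the clock repressor REV-ERB alpha, at a distance of 1.05, and the neighbours Lrg1 and Plin5 at 1.18 and 1.19, where the median over all genes was 13.7. Nr1d1 had 4370 bases under GR and 12049 under Pol2, and Txnip 7245 and 8996. For Arrdc2 they were Tmem189 and its neighbour Cebpb, a transcription factor of the C/EBP family, at 0.757 and 0.769, and Siva1 at 0.906, with a median of 13.0. For Arrdc3 they were Tmc4, Rab6a and Mboat7 at 0.519 to 0.546, and for Arrdc4 Slc4a7, Rxylt1 and Prdx6 at 0.295 to 0.544. The nearest to Arrdc1 were Nlgn2, Plscr3 and Tmem256, which lie together and share 1 distance, 0.161, and those of Arrdc5 were Cd68, Magix and Mpdu1, the first of them at 0.478. Neighbouring genes share their peaks, so these are not separate instances. On this scale a library with peaks at only 1 of 2 genes adds much to their distance, and the median gene had 0 bases under CTCF. The medians over all genes therefore do not show how alike genes with peaks of the same libraries are.

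The tissue was checked on marker genes, with Pol2 within 1 kb of a TSS as the measure, which 47.1% of all genes had. It was found at 10 of 10 genes of skeletal muscle fibres, such as Ckm and Acta1. It was found at 3 of 4 fibro-adipogenic genes, 1 of 4 endothelial, 1 of 4 immune and 1 of 3 Schwann cell genes. For adipocyte, satellite cell, neuron and liver genes it was 0 of 3 each. The libraries are of whole tissue, so peaks of the family cannot be assigned to 1 cell type, and few nuclei of a type cannot be told apart from weak occupancy in each.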

How the data were processed

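Peak lists of 6 ChIP-seq libraries were used as deposited. Per the submitters' processing notes, the build was mm10 and the tools were Bowtie 1.0.0, MACS2 and bcl2fastq 2.17.1.14, with no role stated for any of them. Thresholds and read depth are unknown. The lists deposited for Pol2, GR, H3K4me1 and H3K27ac hold positions and names only. For CTCF and H3K4me3 the authors also deposited a score, a fold (ratio) over control and a −log10 q-value per peak, in columns with no header, told from their values. A list called from a deeper library can hold more and wider peaks, and a broad region can be called as many peaks.

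Mitochondrial peaks were left out (8 GR, 7 H3K4me3, 5 CTCF, 1 Pol2). Genes and TSS came from GENCODE M21 (GRCm38), and promoters of all 6 genes from RefSeq (GRCm38.p6). Overlap meant at least 1 base. Counts used Python 3.11.15 and pandas 2.3.3. The counting was tested on a few made-up peaks, and the GR motif search on simulated sequences with a planted element. The genes named are the 6 family members, owners of the nearest TSS in their windows, 5 fixed lists and the 3 most alike genes. One gene of these lists is not reported here and is in no count. Members and lists were chosen with earlier results of these data known. Alternatives were windows of 10, 50 and, added later, 250 kb, midpoints, merged peaks, the widest 50%, the nearest TSS, 1 TSS per gene, 50% coverage, a reach of 1 kb and motif settings.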

Additional observations from a re-analysis of the deposited data

How the results depend on the processing

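Of 69 alternative values, 46 left the number within 1.5 times the reported one. Counting GR peaks with gaps of at most 1 kb as 1 gave 5 at Txnip, 4 at Arrdc2 and 4 at Arrdc5. Arrdc1, Arrdc3 and Arrdc4 then had 3, 3 and 1, so Txnip led by less than with separate peaks. The share of all genes with as many merged peaks is not given here, so the 0.082% at Txnip describes separate peaks only. A window of 50 kb gave 6 GR peaks at Arrdc1, 17 at Arrdc2, 7 at Arrdc3 and 15 at Arrdc5, and one of 10 kb gave 3 at Arrdc5. The widest 50% of GR peaks left 12 at Txnip and 4 at Arrdc5. With the nearest TSS only, Arrdc1 had 1 and Arrdc5 0. Requiring 50% of a GR peak to be covered put 8 peaks in the class with H3K4me1 alone and 2 in that with no or other marks. Counting marks within 1 kb as shared left 0 and 0. Within 5 kb of a TSS, CTCF was found at 1 gene, and with 1 mismatch the GR element was found in 3 peaks. The reasons for these shifts were not tested. Within 250 kb, a window added after the data were seen, Arrdc2 had 40 GR peaks, Arrdc5 38, Txnip 33, Arrdc3 17 and Arrdc1 8. Txnip had the most of the 6 genes under the other settings, not under this one. The depth is unknown, and an absent peak does not show absent binding. No paired analysis was possible because there is 1 library per antibody.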
